A study of Mus musculus with 47 samples.

Results

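Carbonic anhydrases are zinc enzymes that convert carbon dioxide and water to bicarbonate and a proton, and the members described here are the mouse genes Car1, Car2, Car3, Car4, Car5a, Car8, Car12, Car13 and Car14. They are 9 of the 20456 genes with counts. The set was listed because Car1 rose in Daxx mutants, so the values of Car1 in mutants against wild-type littermates are given here as a description with no test, including where they lie against the limits used for other genes. Among the members, tests are reported only for the paralogs and for wild-type tissues, whose values were not the reason given for the list. All 9 genes passed the filter on low counts, alongside 6 of the 7 other carbonic anhydrase genes in the file (Car5b, Car7, Car9, Car10, Car11 and Car15, but not Car6).

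RNA came from liver, lung and brain of mouse embryos at E18.5 on a C57BL/6 background. Mutant embryos were homozygous for the Daxx S226A or the Daxx Y130A allele, knock-in point mutations introduced with CRISPR/Cas9 into C57BL/6N zygotes and followed by backcrosses to C57BL/6J, with silent changes in the same donor DNA, and each mutant was compared with wild-type littermates of its own litters. In the study, S226A addresses the binding of Daxx to the histone variant H3.3 and Y130A its binding to Atrx. Each of the 12 groups, a tissue of S226A, of Y130A or of the wild type of either set of litters, held 4 libraries, but wild-type lungs from Y130A litters held 3, the study having set another aside as an outlier, so that 1 Y130A lung has no littermate. The 47 libraries came from 17 embryos of 8 litters, so that p-values measure the spread between embryos of a few litters. No treatment was given, every cell of a mutant carries the allele, and gene counts cannot show a point mutation, so genotypes rest on the labels.

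Total counts ranged from 15722147 to 26190403 (median 20341531) in the 24 libraries of the S226A litters and from 36351738 to 54885020 (median 44523912) in the 23 of the Y130A litters, so that low values are better measured in the second set, and depth cannot be told apart from the set of litters. Levels are given as reads or as CPM, reads relative to a library size scaled with TMM. Summed hepatocyte genes lay between 112935 and 194743 CPM in livers, and summed neuron genes between 4381 and 5573 CPM in brains. In 2 livers, 1 wild type of the S226A litters (replicate 2) and 1 Y130A (replicate 1), genes of squamous epithelium summed to 1144 and 749 CPM, against at most 9.56 CPM in the other livers. Log2 fold changes of Car12 that rest on these livers are given with and without them.

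The family divides by where the protein sits. Car1, Car2, Car3 and Car13 are cytosolic enzymes, Car5a is mitochondrial and serves urea synthesis and gluconeogenesis in liver, Car4 is anchored on the outside of the plasma membrane, and Car12 and Car14 span it with the active site outside. Car8, also cytosolic, has kept the fold but not the enzyme activity and binds the inositol trisphosphate receptor in Purkinje cells. Red blood cells hold much Car1 and Car2, which let blood carry carbon dioxide as bicarbonate, and the liver is the site of red cell production before birth.

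The part of the coding sequence around the first zinc-binding residues shows the family's shared core and the member that lost it. In the lines that follow, the capitals are the codons at the positions of the first and second of the histidines that hold the zinc ion, read 5′ to 3′ on the coding strand from GENCODE M21 transcripts (GRCm38).
Car1, exon 4 of 8, minus strand, chr3:14776272-14776298: actcagttcCATtttCACtggggcaac
Car2, exon 3 of 7, plus strand, chr3:14895060-14895086: atccagtttCACtttCACtggggctca
Car3, exon 3 of 7, plus strand, chr3:14866841-14866867: cgccaattcCATcttCACtggggctcc
Car13, exon 3 of 7, plus strand, chr3:14650697-14650723: cggcagttcCATttgCACtgggggtca
Car5a, exon 3 of 7, minus strand, chr8:121927137-121927163: aagcagtttCATttcCACtggggagca
Car8, exon 3 of 9, minus strand, chr4:8221604-8221630: tatgaagttAGAtttCACtggggaaga
Car4, exon 4 of 8, plus strand, chr11:84964158-84964184: gtacagttgCACctgCACtggtcaaat
Car12, exon 4 of 11, plus strand, chr9:66747638-66747664: gagcagctgCACttgCACtgggggaac
Car14, exon 4 of 11, minus strand, chr3:95900300-95900326: gcccagctcCACctgCACtggggtcag
Histidine codons (CAT or CAC) stand at both places in 8 of the 9 genes. Car8 carries an arginine codon at the first.

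Car1 lies in a cluster with Car2, Car3 and Car13 on chromosome 3. In GRCm38, Car13 (14641727-14663002, plus strand) is followed by Car1 (14766216-14808368, minus strand) after 103213 bp, then by Car3 (14863512-14872523, plus strand) after 55143 bp and Car2 (14886273-14900770, plus strand) after 13749 bp. The coding sequence of Car1 was 65.5% identical to that of Car13, 64.4% to Car3 and 63.4% to Car2. The longest run of bases shared by any pair of the 9 coding sequences was 30 (Car2 and Car13), and Car1 shared at most 20 with another member. Untranslated exons and the other carbonic anhydrase genes were not compared. No annotated exon of another gene overlaps an exon of Car1. Exons of Car14 overlap 445 bp of Aph1a on the other strand and exons of Car5a 314 bp of the noncoding BC048644, and since the strand setting of the counting is not known, reads there cannot be told apart.

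In liver, Car1 was higher in every mutant than in every wild-type littermate, by more in Y130A than in S226A. The 4 wild-type livers of the S226A litters had 25.1, 30.1, 21.7 and 37.1 CPM of Car1 (408, 458, 302 and 605 reads). The 4 S226A livers had 53.5, 81.9, 69.4 and 72.4 CPM (813, 1773, 1122 and 1092 reads). The lowest S226A liver thus stood above the highest wild-type one, and the log2 fold change was 1.28 (SE 0.27), from means of 28.5 ± 6.69 and 69.3 ± 11.8 CPM (SD, n = 4 each). The wild-type livers of the Y130A litters had 37.3, 30.6, 30.4 and 34.8 CPM (1231, 1153, 876 and 1002 reads). The 4 Y130A livers had 197, 159, 152 and 199 CPM (6687, 4715, 4287 and 6100 reads), every one several times the highest wild type, with a log2 fold change of 2.41 (SE 0.27) from means of 33.3 ± 3.37 and 177 ± 24.7 CPM. Within litters, the mutant liver held 1.95 to 3.20 times the Car1 of its wild-type littermate in the 4 S226A litters and 5.00 to 5.70 times in the 4 Y130A litters. The ranges of these ratios do not meet. Without both livers high in squamous epithelium genes, the log2 fold changes were 1.31 in S226A and 2.35 in Y130A. In whole tissue, more cells that express a gene and more of its RNA per cell cannot be told apart.

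**Figure D1:**
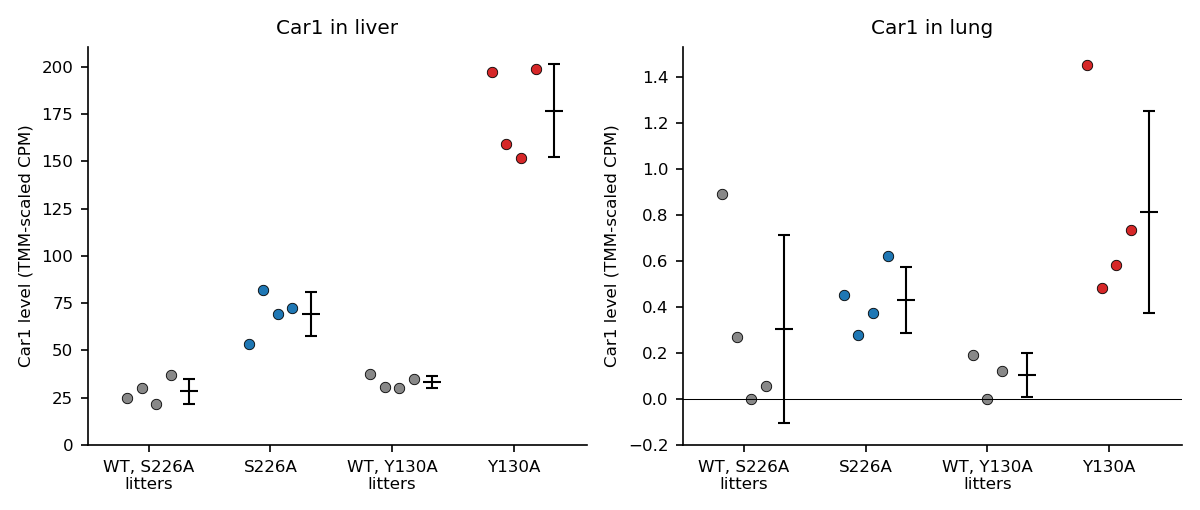
Car1 in each liver (left) and lung (right) library, in TMM-scaled CPM; each point is 1 library, and the bar beside each group is its mean ± SD, with vertical axes of different scale. All mutant livers lie above all wild-type livers, the Y130A livers between 152 and 199 CPM, and no lung is above 1.45 CPM.

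Car1 was the member past the call limits in each of these comparisons, which was how the list was chosen and from which nothing is read. A gene was called where its adjusted p (edgeR's quasi-likelihood test, Benjamini-Hochberg over 16892 genes) was below 0.01, its log2 fold change beyond 1 and its SE below 1. Of all genes tested, 2.1% were called in S226A liver and 0.077% in Y130A liver, and 6.7% and 1.16% had every mutant above every wild type. With DESeq2, Car1 was not past them in S226A liver, at a log2 fold change of 1.27. The log2 fold change in S226A less that in Y130A was −1.13 (SE 0.37). That difference did not meet all the call limits here, and met them in 1 of 24 alternatives. The wild-type livers of the Y130A and S226A litters differed by 0.22 (SE 0.26, edgeR adjusted p = 0.638). Leaving out Car4, which has almost no reads in liver, the next highest log2 fold changes among the members, short of the limit of 1, were those of Car13 (0.32) in S226A and Car3 (0.79) in Y130A liver.

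Car2, the abundant red cell enzyme of the same cluster, was not higher in S226A liver, where its values lay below the wild type. Its levels were 954, 1052, 1021 and 967 CPM in the S226A livers, all below the 1168, 1303, 1208 and 1104 CPM of their wild-type littermates, a pattern of 5.18% of all genes. The mutant held 0.807 to 0.876 of the wild-type level in the 4 litters, and the difference did not pass the test (log2 fold change −0.26, SE 0.12, 95% interval −0.51 to −0.01, adjusted p = 0.175). In Y130A livers, Car2 averaged 1599 CPM against 1484 CPM, with overlapping groups (log2 fold change 0.11, SE 0.12, adjusted p = 0.912). The difference between the mutants in Car2, −0.37 (SE 0.17), had an adjusted p of 0.239.

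Set against Car2, whose reads come from the same library, Car1 was higher in both mutants than in their wild type, and highest in Y130A. The ratio uses the same Car1 values that chose the list, so it is a description and no test. Car2 was itself lower in S226A livers, at 0.807 to 0.876 of the littermate, which raises the ratio there. There were 1.80 to 3.36 Car1 reads per 100 Car2 reads in the wild-type livers of the S226A litters (median 2.23) and 1.93 to 2.94 in those of the Y130A litters (median 2.14). S226A livers had 5.61 to 7.78 (median 7.15) and Y130A livers 9.45 to 12.9 (median 11.0). None of these 4 ranges of mutant and wild type overlapped within a set of litters.

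**Figure D2:**
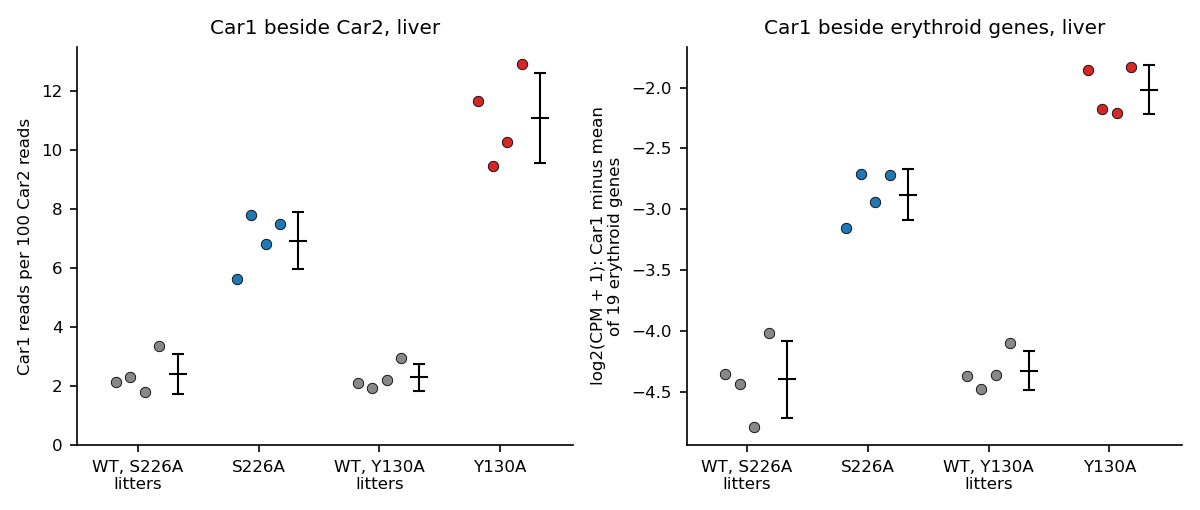
Car1 beside 2 measures from the same liver libraries: Car1 reads per 100 Car2 reads (left) and log2(CPM + 1) of Car1 minus the mean over 19 erythroid genes (right); points are libraries and bars mean ± SD. In both, wild-type livers lie lowest, S226A livers in the middle and Y130A livers highest.

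None of the red cell precursor genes listed was called, while of all genes 2.1% were called in S226A liver and 0.077% in Y130A liver. Of 19 erythroid genes (globins, the heme synthesis enzyme Alas2, the transcription factors Gata1 and Klf1, the anion exchanger Slc4a1 and others), 0 were called in any mutant tissue by edgeR or by DESeq2, and 2 had an unadjusted edgeR p under 0.05 in S226A liver and 0 in the other comparisons. Their median log2 fold change was −0.30 in S226A liver and 0.03 in Y130A liver, against −0.01 and 0 over all genes, and in S226A liver 8 of the 19 had every mutant below every wild type, against 5.18% of all genes. Summed, they made up 25591 to 29733 CPM in S226A, 26426 to 35007 CPM in its wild type, 36028 to 39950 CPM in Y130A and 30215 to 42108 CPM in its wild type. On the log2(CPM + 1) scale, Car1 minus the mean of these genes was −4.40 ± 0.318 and −4.33 ± 0.159 in the wild-type livers of the S226A and Y130A litters, −2.88 ± 0.211 in S226A and −2.02 ± 0.201 in Y130A livers (SD, n = 4 each). Several of the globin genes have near-identical copies, between which reads may have been split.

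Granulocyte and monocyte genes were higher in S226A livers. All 10 granulocyte and monocyte genes listed (Mpo, Elane, Prtn3, Ctsg, S100a8, S100a9, Ltf, Camp, Ngp and Ly6c2) were called higher there, with a median log2 fold change of 1.44 and sums of 8979 to 9679 CPM against 3096 to 3673 CPM, while DESeq2 called 6 of them. Summed hepatocyte genes were 112935 to 142221 CPM against 150237 to 154471 CPM, but edgeR called none of the hepatocyte genes listed. In Y130A liver 0 of the 10 were called by edgeR or DESeq2 and 0 had an unadjusted p under 0.05. The part of these cells in the level of Car1 was not tested.

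The remaining paralogs of the cluster, Car3 and Car13, were not called in liver. Car3, abundant in muscle, fat and adult liver, had 31.6, 55.4, 71.7 and 28.1 CPM in Y130A livers against 29.5, 29.3, 27.3 and 22.0 CPM in their littermates. The mutant was the higher of each litter, by 1.07 to 2.62 times, but the log2 fold change of 0.79 (SE 0.41) did not pass (adjusted p = 0.601). In S226A liver it was −0.02 (SE 0.42, adjusted p = 1). Car13 had 3.01, 5.21, 6.56 and 4.33 CPM in Y130A livers against 2.09, 4.01, 2.98 and 4.80 CPM in their littermates. The log2 fold change was 0.46 (SE 0.25, adjusted p = 0.644), and 0.32 (SE 0.26, adjusted p = 0.495) in S226A.

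Nor did Car5a, Car8 and Car14 pass the test in the liver of either mutant. Mitochondrial Car5a had log2 fold changes of −0.04 (SE 0.36) in S226A and 0.24 (SE 0.35) in Y130A. The acatalytic Car8 had 46.5, 44.3, 41.8 and 38.1 CPM in Y130A livers against 32.1, 38.8, 37.1 and 34.1 CPM in their littermates. The mutant was higher in 4 of 4 litters by 1.12 to 1.45 times, at a log2 fold change of 0.26 (SE 0.23, adjusted p = 0.850). Car14 had log2 fold changes of −0.06 (SE 0.22) and 0.05 (SE 0.21). Car4 is given as reads: 15 of the 16 livers had 0 or 1, and 1 wild-type liver of the Y130A litters had 3.

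Car12, a membrane enzyme of epithelia, had a negative value in S226A liver that rested on 1 library. Its reads were 2, 80, 9 and 16 in the wild-type livers of the S226A litters and 10, 14, 5 and 16 in S226A (log2 fold change −1.39, SE 0.64, adjusted p = 0.167). The 80 reads were in the wild-type liver with 1144 CPM of squamous epithelium genes, and without it the value was 0.19 (SE 0.66). In the Y130A litters, the 105 reads of the liver with 749 CPM of those genes stood beside 50, 0 and 38 in the other mutants and 57, 91, 92 and 24 in the wild type. The log2 fold change there was −0.43 (SE 0.53), and −1.06 (SE 0.57, adjusted p = 0.665) without that liver.

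**Figure D3:**
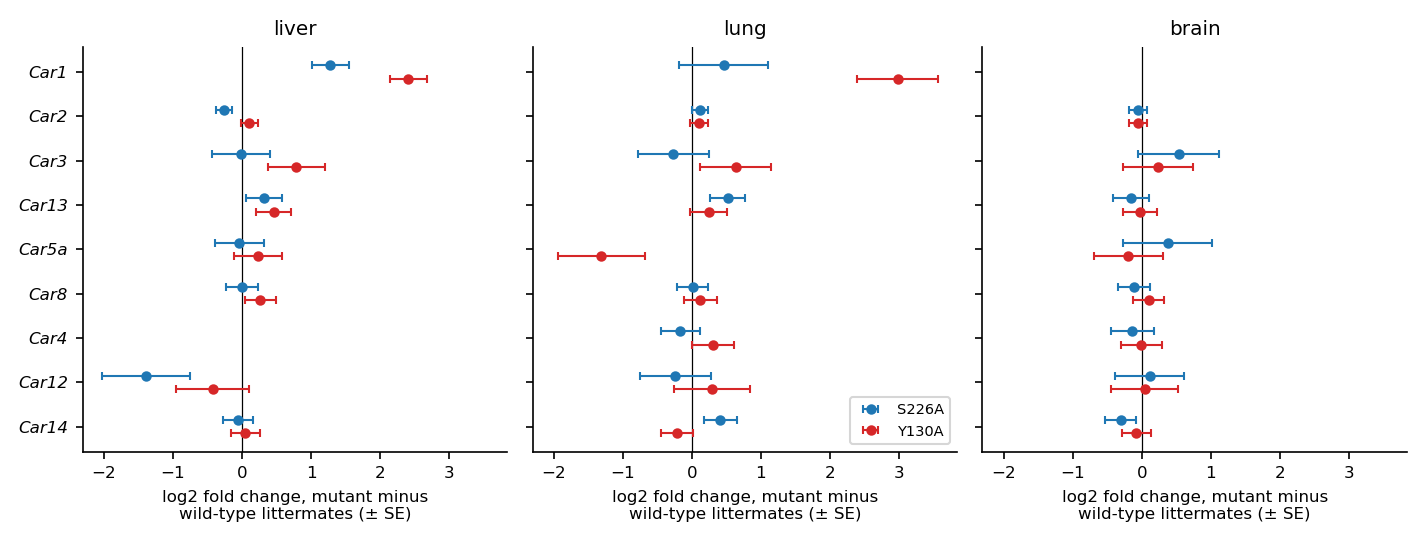
Log2 fold change of each member, mutant minus wild-type littermates, in liver, lung and brain, with S226A in blue and Y130A in red; points are edgeR estimates and bars ± 1 SE. Car4 in liver, Car1 in brain and Car5a in S226A lung are left out because at least 1 group had almost no reads; in liver Car1 stands at 1.28 and 2.41 and no paralog is above 0.79.

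Across the 8 paralogs, edgeR called 0 in liver, lung or brain of either mutant, and DESeq2 called 0 as well. At an unadjusted edgeR p under 0.05 stood Car2 and Car12 in S226A liver, Car13 in S226A lung, Car5a in Y130A lung, and none in the other comparisons. How many of all genes had the same direction in every litter was not counted, so nothing is read from such directions in a paralog. Of all genes, 0.302% were called in S226A lung, 0.124% in S226A brain, 0% in Y130A lung and 0% in Y130A brain, so that few or no genes passed outside the S226A liver. The test of the difference between the mutants called 0 of the 8 paralogs in any tissue by edgeR (1.05%, 0.077% and 0.0474% of all genes in liver, lung and brain) and 0 by DESeq2, and Car2 in liver and Car5a in lung had an unadjusted p under 0.05.

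In lung, Car1 was near the limit of detection, and its values in Y130A did not overlap those of the wild type. Wild-type lungs from Y130A litters had 9, 0 and 6 reads of Car1. The Y130A lungs had 87, 21, 25 and 32 reads, at 1.45, 0.482, 0.583 and 0.737 CPM (log2 fold change 2.98, SE 0.58). Without the replicate with 87 reads it was 2.50 (SE 0.61), and without the wild-type lung with 9 reads 3.71 (SE 0.75). Of all genes, 1.61% had every Y130A lung above every wild-type lung.

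The Y130A lung with 87 reads also had the most hepatocyte transcripts of any lung, 1089 CPM over the list, and 5243 CPM of erythroid transcripts. The other Y130A lungs had 50.0 to 233 CPM of hepatocyte genes and 3223 to 4997 CPM of erythroid genes. Their wild-type lungs had 127 to 255 CPM of hepatocyte genes and 2930 to 5880 CPM of erythroid genes. The sums of the other 3 Y130A lungs thus lay within or below the wild-type ranges. The part of liver or blood transcripts in the lung value was not tested.

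S226A lungs gave no such separation. They had 11, 6, 8 and 15 reads of Car1, against 19, 6, 0 and 1 in their wild type (log2 fold change 0.46, SE 0.64). The wild-type lung with 19 reads exceeded every S226A lung, and without it the value was 1.89 (SE 0.81). In brain, Car1 had 0 to 7 reads in every library of every genotype, so that a difference was not detectable at this depth.

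Among the paralogs in lung, Car13 in S226A stood apart from its wild type. It had 6.64, 9.23, 6.71 and 7.77 CPM against 5.81, 5.75, 5.66 and 3.94 CPM, and was the higher of each litter by 1.14 to 1.97 times. The log2 fold change of 0.52 (SE 0.25) had an adjusted p of 0.300, and 2.09% of all genes had every S226A lung above every wild-type lung. In the same lungs the 10 granulocyte and monocyte genes summed to 135 to 188 CPM against 36.3 to 81.2 CPM, and 2 of them, S100a8 and S100a9, were called higher by 1.65 and 1.83 on the log2 scale. Their part in the Car13 values was not tested. Car2 in Y130A lungs (194, 195, 180 and 188 CPM) was above its wild type (178, 174 and 176 CPM) with a log2 fold change of 0.10 (SE 0.13, adjusted p = 1).

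Car3 in lung ranged from 0.248 to 6.14 CPM over the libraries, with overlapping groups. Skeletal muscle genes, which Car3 accompanies in muscle, summed to 28.6 to 386 CPM in the same lungs, and the lowest Car3 was in the lung with the lowest sum. The highest Car3 was in a wild-type lung with a sum of 219 CPM, while the lung with the highest sum had 2.69 CPM of Car3. Their part in the Car3 values was not tested. The S226A lungs differed from their wild type by −0.27 (SE 0.51) and the Y130A lungs by 0.64 (SE 0.51), with adjusted p-values of 0.875 and 1. Car4, made by a class of lung capillary cells, ranged from 9.65 to 30.8 CPM in S226A and from 14.6 to 36.2 CPM in Y130A lungs, both overlapping their wild type, and summed genes of such endothelium lay between 1719 and 2387 CPM in all lungs.

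In brain, no paralog passed the test in either mutant, at adjusted p-values of 1 throughout. Car14, a membrane enzyme of neurons, was lower in the mutant of 4 of 4 S226A litters, at 0.670 to 0.974 of the littermate, with a log2 fold change of −0.30 (SE 0.22). The best measured members, Car2 and Car8, had log2 fold changes between −0.11 and 0.10.

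The members were listed for the rise of Car1 in mutants and not for levels in wild-type tissues, though earlier results of these data were known. Liver had 30.9 ± 5.54 CPM of Car1 (SD, n = 8), lung 0.218 ± 0.313 (n = 7) and brain 0.0301 ± 0.0406 (n = 8). Car1 was higher in liver than in lung by 7.38 on the log2 scale (SE 0.32, adjusted p = 1.91e-23) and higher than in brain by 10.15 (SE 0.38). Between lung and brain it was called at 2.77 (SE 0.85, adjusted p = 0.00297), with overlapping groups, and that call was lost within the wild type of each set of litters alone. It was also lost without replicate 1 of the wild-type lungs of the S226A litters (2.06), without replicate 2 of their brains (3.68) and without replicate 1 of the wild-type lungs from Y130A litters (2.41), so that the order of lung and brain rests on few reads.

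Of the 9 members, 6 were called between wild-type liver and lung, 7 between liver and brain and 6 between lung and brain, against 42.6%, 56.1% and 48.8% of all genes. Car2 had 1340 ± 235 CPM in liver, 171 ± 21.9 in lung and 16.04 ± 2.42 in brain, with log2 differences of 2.96 (SE 0.10) between liver and lung and 3.41 (SE 0.10) between lung and brain. Car5a had 18.7 ± 1.80 CPM in liver against 0.149 ± 0.214 in lung and 0.285 ± 0.130 in brain. Car3 was higher in liver by 3.81 (SE 0.37) than in lung and by 4.92 (SE 0.37) than in brain, and Car14 by 2.08 (SE 0.17) and 1.58 (SE 0.15). Between lung and brain, the call of Car3 at 1.10 (SE 0.39, adjusted p = 0.00835) held in 11 of 24 alternatives. These 5 members, Car1, Car2, Car3, Car5a and Car14, were called higher in liver than in each of the other tissues, as were 18.9% of all genes against lung and 26.9% against brain.

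Car4 was the reverse. Wild-type livers held 3 Car4 reads in all, against 21.2 ± 5.87 CPM in lung and 3.22 ± 0.485 CPM in brain. Taking 3 reads per library as the floor, lung was at least 146.5-fold and brain at least 22.2-fold higher than liver. Lung exceeded brain by 2.70 (SE 0.22, adjusted p = 1.68e-13). Car12 was highest in brain at 7.41 ± 0.676 CPM, against 3.20 ± 1.34 CPM in lung and 1.90 ± 1.69 CPM in liver, with log2 differences from brain of −1.35 (SE 0.38) in lung and −1.97 (SE 0.38) in liver. Within the wild type of the S226A litters alone, the difference between lung and brain was not called, at −0.80 (adjusted p = 0.144), and without the wild-type liver high in squamous genes that between liver and brain was −2.76. Car12 in liver and lung differed by −0.62 (SE 0.39, adjusted p = 0.143), but by −1.41 (adjusted p = 0.000666) without that same liver.

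Car8 and Car13 differed between tissues by no more than 1.26 on the log2 scale in the fit of all libraries. Car8 had 58.9 ± 18.9 CPM in lung, 35.1 ± 4.49 in liver and 23.6 ± 5.05 in brain. The call of 1.26 (SE 0.17) between lung and brain held in 23 of 24 alternatives, which lay between 0.99 and 1.53. The value of 0.99 came from the wild type of the Y130A litters alone. Car13 had 5.80 ± 1.10 CPM in lung, 3.79 ± 1.11 in liver and 3.03 ± 0.476 in brain. Its difference between lung and brain, 0.95 (SE 0.19, adjusted p = 1.24e-05), was below the fold limit. It was called in 6 of 24 alternatives, among them embryo as a replicate block (1.07), and the highest value was 1.10.

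Compared per kilobase of exon (FPKM), Car2 led in each tissue. In wild-type liver its 553 ± 97.2 FPKM lay above the 24.7 ± 4.44 FPKM of Car1, which in turn lay above all others without overlap of the libraries. Car5a (14.0 ± 1.34), Car3 (9.90 ± 1.88), Car8 (9.12 ± 1.16) and Car14 (6.48 ± 1.83) followed, each overlapping the next, then Car13 (1.65 ± 0.482), Car12 (0.250 ± 0.222) and Car4. In lung, Car2 (70.4 ± 9.04 FPKM) stood clear of Car8 (15.3 ± 4.91) and Car4 (10.8 ± 2.98), which overlapped, and the rest were at 2.52 FPKM or below on average. In brain, Car2 (6.62 ± 0.999 FPKM) and Car8 (6.11 ± 1.31) overlapped and led, and Car1 was last at 0.0241 FPKM.

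**Figure D4:**
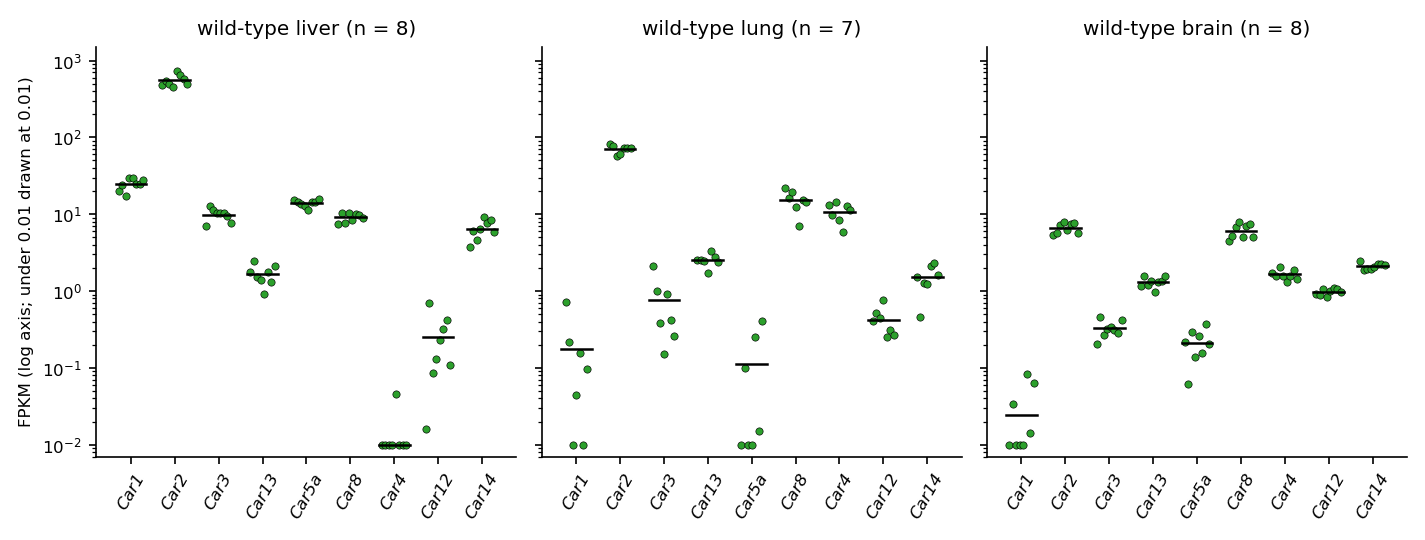
Level of each member per kilobase of exon (FPKM, log axis) in the wild-type libraries of liver, lung and brain; points are libraries, bars are means, and values under 0.01 are drawn at 0.01. Car2 leads in each tissue, at 553 FPKM in liver on average, Car1 is second in liver and last in brain, and Car4 is near 0 in liver alone.

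Wild-type embryos of the Y130A and S226A litters, which differ in litter and depth but not in the alleles, gave 0 called members of 9 in liver, lung and brain by edgeR (0.414%, 1.62% and 0.101% of all genes), while DESeq2 called Car5a in lung, and 2, 3 and 0 had an unadjusted edgeR p under 0.05. Car5a had 16, 1 and 27 reads in wild-type lungs from Y130A litters against 0, 3, 0 and 0 in those of the S226A litters. Car14 was higher in the former in lung by 0.84 (SE 0.24, edgeR adjusted p = 0.0109), with no overlap, against 11.3% of all genes that did not overlap in that direction. In liver, Car14 differed by 0.57 (adjusted p = 0.0671) and Car2 by 0.31 (adjusted p = 0.0814).

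Of the other carbonic anhydrase genes, Car10, Car11 and Car15 were called higher in brain, Car5b in lung and Car9 in liver and lung. Car10 and Car11, family members without enzyme activity, had 41.3 ± 3.74 and 40.3 ± 2.82 CPM in wild-type brain and were lower in liver by −9.39 and −6.94 on the log2 scale, and in lung by −8.91 and −4.77. Mitochondrial Car5b had 3.99 ± 0.742 CPM in lung, with log2 differences of −1.91 between liver and lung and 1.26 between lung and brain. The hypoxia-inducible Car9 was higher in liver and lung than in brain by 3.77 and 3.78, and Car15, whose exons share 1253 bp with those of Gm20518, was lower by −1.38 and −1.02. None of the 6 tested was called in a mutant by edgeR or DESeq2, and 2 (Car10 and Car11) had an unadjusted edgeR p under 0.05 in Y130A liver and 0 in the other comparisons.

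Transporters that work beside carbonic anhydrases were not called. Of 14 genes for bicarbonate transporters and for carbon dioxide and water channels (the Slc4 family, Aqp1, Rhag, Rhd and Slc26a6), 0 were called in any of the 6 comparisons of a mutant with its wild type by edgeR or DESeq2. At an unadjusted p under 0.05 there were 2 in S226A liver, 1 in Y130A lung and 0 elsewhere. Their median log2 fold change was −0.30 in S226A liver and −0.05 in Y130A liver. Slc4a1, Rhag and Rhd are also among the erythroid genes above, so the medians of these lists share genes. Of all genes, 2.1% were called in S226A liver and 0.077% in Y130A liver.

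Few genes around Car1 were tested, and none was called. Within 500 kb, 4 protein-coding genes besides the carbonic anhydrases were tested. None of them and no paralog was called by edgeR in any tissue of either mutant, and DESeq2 called none. Of all genes, 2.1% were called in S226A liver, 0.077% in Y130A liver and few or none elsewhere, so nothing is read from the absence of calls. At an unadjusted edgeR p under 0.05 stood, besides the paralogs, Gm9733 in S226A liver and lung, E2f5 and 1810022K09Rik in S226A lung and Lrrcc1 in Y130A liver. Lrrcc1 had log2 fold changes of 0.14 in S226A and 0.27 in Y130A liver, E2f5 −0.11 and 0.04, and 1810022K09Rik −0.07 and 0.00. In S226A lung, the values were 0.39 for E2f5, 0.52 for 1810022K09Rik and −2.21 for Gm9733 (0.112 against 0.526 CPM). Gm9733 averaged 1.87 CPM in S226A livers against 0.420 CPM (log2 fold change 2.12, SE 0.79, adjusted p = 0.0782), with 0.05 in Y130A. Slc7a12 had no reads in the livers and was not tested.

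**Figure D5:**
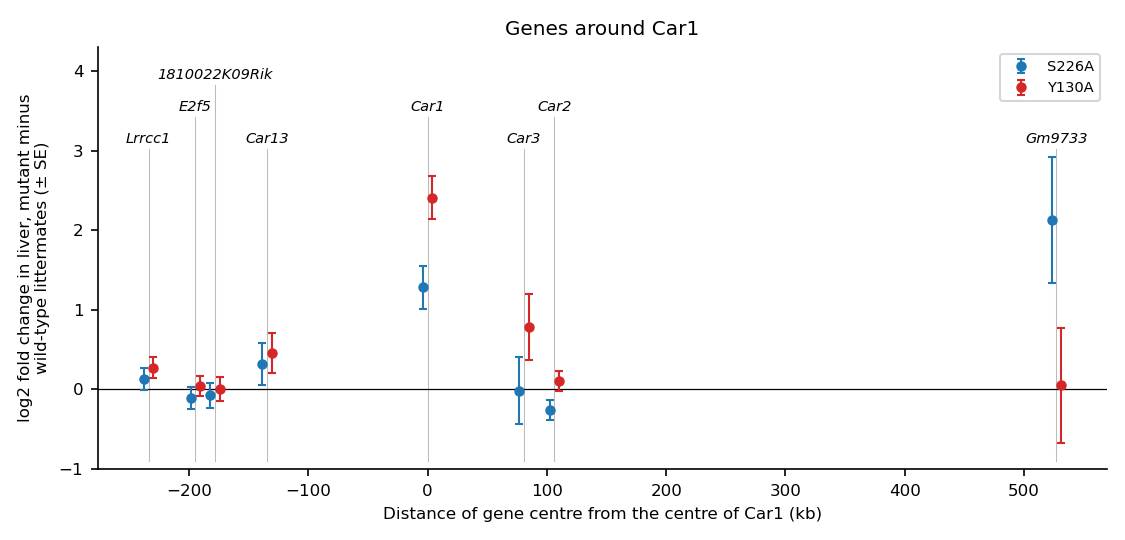
Log2 fold change in liver (± SE), mutant minus wild-type littermates, of Car1 and the tested protein-coding genes within 500 kb, by the distance of their centres from that of Car1 in kb; S226A in blue, Y130A in red. Car1 stands at 1.28 and 2.41, the genes on either side between −0.26 and 0.79, and Gm9733 at the far right at 2.12 in S226A and 0.05 in Y130A.

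The genes most like Car1 over all 47 libraries were liver genes. By Pearson's r of log2(CPM + 1), they were Cyp2c67 (0.986), Cyp2c40 (0.983), Cyp2j5 (0.979), Hao2 (0.979) and Gm4788 (0.978), and the libraries share the contrast of liver with lung and brain that sets these values. Cyp2c40, a cytochrome P450, averaged 264 CPM in Y130A livers against 107 CPM and 155 CPM in S226A livers against 131 CPM, given as a description since likeness to Car1 chose it. Among the members, Car5a had an r of 0.965 (rank 309), Car3 0.958 (rank 465) and Car2 0.855 (rank 2198).

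Over the 16 livers alone, where the mutants set much of the spread, the most similar genes were Atp1b3 (0.919), Gm21887 (0.916), Cnpy1 (0.875), Gria4 (0.875) and Ear6 (0.866). Atp1b3, a subunit of the sodium pump, had log2 fold changes of 1.25 in S226A and 1.31 in Y130A liver, and Gria4, a glutamate receptor subunit, 2.16 and 1.92. Gm21887 had 3.21 and 3.00. Cnpy1 averaged 0.0577 CPM in S226A against 0.0493 CPM in wild-type livers and 2.05 against 0.0606 CPM in the Y130A litters. Ear6 averaged 0.301 against 0.0329 CPM and 1.16 against 0.191 CPM. These genes were picked for their likeness to Car1 over the livers that are compared, so their values are a description and carry no test. The nearest members were Car8 (0.577, rank 300) and Car3 (0.503), and Car2 had 0.306 (rank 3512).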

How the data were processed

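Gene counts of 47 libraries were used as the authors deposited them, as whole numbers of reads per gene without normalization, and expression of 9 carbonic anhydrase genes was described. The submitters' processing notes name FastQC 0.11.5, Trim Galore 0.6.5, STAR 2.6.0b, GRCm38 and DESeq2. Per the study's methods, STAR also gave the counts per gene, while its strand setting is not given in the sources used here. Symbols, exons, positions and transcript sequences came from GENCODE M21, which matched 20424 of 20456 genes when version suffixes were left out.

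All 47 libraries were fitted together with edgeR 4.0.16 in R 4.3.3 (quasi-likelihood, 1 coefficient per group, TMM, minimum count 10 and minimum total 15), leaving 16892 genes. SE was taken as the size of the estimate over the root of its F statistic. FPKM is TMM-scaled CPM per kilobase of the union of a gene's exons. The members and lists were chosen with earlier results of these data known. Genes named are the members, the other carbonic anhydrases, protein-coding genes within 500 kb of Car1, the 5 most correlated with Car1 over all libraries and over livers, list genes that were called or that tell what a list holds, and genes whose exons overlap those of a carbonic anhydrase. The script was tested on simulated data.

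Alternatives were DESeq2 1.42.0, RLE factors, no filter, only the groups compared, other call limits, litter or embryo as replicate block, the wild type of each set of litters alone, other lengths and scalings for FPKM and each library left out; leaving out both livers high in squamous genes was chosen after seeing the data. Litter and embryo numbers are in the labels: residuals of littermates correlated above 0.1 in 18 of 23 pairs (median 0.213) and of tissues of an embryo in 27 of 44 (median 0.119). Between replicates of a group, chi-square per degree of freedom was at least 4.17, so none was deposited more than once. Transposable elements were not analysed here.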

Additional observations from a re-analysis of the deposited data

Results flagged for a closer look

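Of 85 groups of 4 libraries in which a member averaged at least 10 reads, 3 had a library far from the others by Dixon's test at 95%, and chance alone flags about 1 in 20 groups. Car2 was 11.4 CPM in Y130A brain replicate 4, against 16.5 to 17.7 CPM in the other Y130A brains. Car13 was 3.94 CPM in replicate 4 of the wild-type lungs of the S226A litters, against 5.66 to 5.81 CPM in the others. The low library widens the difference of S226A lungs from their wild type. For transposable elements, the study named a wild-type lung of these litters as a possible outlier, under a label close to that of replicate 4. Car14 was 6.26 CPM in replicate 1 of the wild-type brains of the S226A litters, against 4.83 to 4.96 CPM.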

How the results depend on the processing

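No alternative reversed the direction of a member that was called. Counts that are Car1 alone in a mutant are given as counts, and nothing is read from them. With DESeq2, the number of members called was 0 in S226A liver, 1 in Y130A lung (Car1) and 1 between the wild-type lungs of the Y130A and S226A litters (Car5a). With an adjusted p below 0.05 as the only limit, it was 1 in Y130A lung, 2 between those wild-type lungs (Car5a and Car14), and 8, 8 and 9 for wild-type liver against lung, liver against brain and lung against brain. With 1 library left out at a time, the count between those wild-type lungs was 0 to 1, with Car14 called without replicate 1 of the wild-type lungs of the S226A litters and Car5a without replicate 2 of those of the Y130A litters. Fitting only the liver groups gave 1 for the difference between the mutants (Car1), and the wild type of the S226A litters alone gave 3 between lung and brain (Car2, Car4 and Car8) against 6. Between those tissues, DESeq2 added Car5a, so that it called 6 paralogs against 5. Car1 was called there in 18 of 24 alternatives, and the fit to these tissues alone gave no value for it. The cause of these shifts was not tested, apart from fewer libraries where groups or libraries were left out.

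With litter as replicate block, 0 paralogs were called in any mutant tissue, the counts of 1 in S226A and 1 in Y130A liver being Car1. With embryo as replicate block it was 6, 7 and 7 for liver against lung, liver against brain and lung against brain, Car13 being added to the last at 1.07. The block changed no other call. Without both livers high in squamous genes, Car12 was added between wild-type liver and lung at −1.41.

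The level of Car2 in wild-type tissue depended on the length and scaling used. Per kilobase of the longest annotated transcript it was 749 FPKM in liver, 95.4 in lung and 8.97 in brain, and with scaling by total count it was 417 in liver and 82.6 in lung. Car2 stayed first in each tissue, while per longest transcript Car3 changed places with Car5a and Car14 with Car8 in liver, Car4 with Car8 in lung and Car12 with Car13 in brain. Scaling by total count would move all genes by −0.63 on the log2 scale between wild-type liver and lung and by −0.59 between liver and brain. The difference of mutant and wild-type livers in Car1 relative to erythroid genes, 1.52 in S226A and 2.31 in Y130A, lay between 1.39 and 1.66 and between 2.25 and 2.39 under the alternatives. Low read numbers limit Car1 in lung and brain, Car4 in liver and Car5a in lung.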
